A study of Mus musculus with 8 samples.

Results

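The clustered protocadherins are 58 RefSeq genes on mouse chromosome 18 whose symbols begin with Pcdha, Pcdhb or Pcdhg followed by digits, or by a letter and digits. They span 912 kb, from 36930285 to 37841873 (GRCm38.p6, the assembly that mm10 names), and 57 of the 58 are protein-coding. The deposited lists hold 27878 clusters, regions of 1 to 2046 bp whose definition the sources used here do not give. Of these clusters, 39 overlapped this span by at least 1 bp. That is 4.74% of the 823 clusters on chromosome 18. Each cluster was counted once, whatever the number of genes it overlapped.

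The assay was reduced representation bisulfite sequencing of sorted skeletal muscle stem cells; it samples the CpG-rich part of the genome and tells methylated from unmethylated cytosines there. All animals carried Tg:Pax7-nGFP/+, in which nuclear GFP reports the stem cell transcription factor Pax7. The 4 samples labelled Fixated were treated with 0.5% paraformaldehyde per the design text, and the 4 labelled Live were left unfixed, with 1 animal behind each sample and 95 ng of DNA per library. The labels also name the fixed samples T0 and the live ones T3, and the title and the design text differ on whether fixation came before or after isolation, so fixation and handling cannot be told apart; age and sex were not used here. The study asked whether fixation alters DNA methylation. The lists give each cluster's position and the authors' verdict on it, with no methylation level, read depth or value per sample, so the identity of the sorted cells could not be checked and no test across animals was possible.

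Clustered protocadherins are cell surface proteins of the cadherin superfamily, best known for giving single neurons a surface identity by which they recognise their own processes. In the alpha and gamma blocks each gene has its own promoter and its own large variable exon, which encodes the extracellular and transmembrane parts, and the variable exon is spliced to constant exons that all genes of the block share. Beta genes have a single such exon and no constant exons. Promoter choice involves the insulator protein CTCF, cohesin and DNA methylation of the promoters, which goes with silence. The genes at the end of the alpha and gamma blocks, called C-type, are regulated apart from the others. Muscle stem cells are not among the cells for which the family is best known.

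None of the clusters over the protocadherin genes was called different between fixed and live cells. The count was 0 of 39, against 0.0753% called over all clusters of the lists. At that overall share 0.0294 calls would fall on 39 clusters, so a count of 0 says little about the locus. A count of 0 allows a called share of up to 7.69% (3 counts of the total). By block, 0 of 8 alpha clusters, 0 of 8 beta clusters and 0 of 22 gamma clusters were called. By the limit of 3 counts, these allow up to 37.5%, 37.5% and 13.6%. A group of 73 clusters precedes the chromosome-ordered part of the list without calls; counted as called too, they raise the share over all clusters to 0.337%, and the count over the protocadherin genes is still 0. The 53 clusters in the 1 Mb on either side held 0 called as well. The only called region on the chromosome lay 42.2 Mb away, in the cell polarity gene Pard6g. There the authors' deposited table lists a median difference of -15.9 points, with a sign that the sources used here tie to neither group. These limits cover counting error only. What the lists do show for these genes is where clusters passed the authors' filters. Sites outside the listed clusters may also have been sequenced.

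The gamma block held most of the clusters. Gamma genes carried 22 clusters in 180 kb, or 12.2 per 100 kb (exact Poisson 95% interval 7.66 to 18.5). The alpha block carried 8 clusters in 259 kb, or 3.09 per 100 kb (1.34 to 6.10), and the beta block 8 in 256 kb, or 3.12 per 100 kb (1.35 to 6.15). The gamma interval lies above those of both other blocks, while the alpha and beta intervals nearly coincide. With neighbours within 1000 bp merged, the gamma interval (5.08 to 14.4) overlapped those of the alpha block (up to 5.58) and, barely, the beta block (up to 5.09). The 76.1 kb between the alpha and beta blocks held 0 clusters. The 140 kb between the beta and gamma blocks held 1, at 37575965 to 37576127, which overlapped neither Slc25a2, a mitochondrial carrier gene, nor Taf7, a subunit gene of the general transcription factor TFIID, both of which lie in that gap. Positions along a chromosome are not replicates, so these densities are descriptions without a test, and the intervals cover counting error only.

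Against the surrounding sequence, the span as a whole was denser in clusters at each flank width run, while overlap of the intervals depended on the width. The span held 4.28 clusters per 100 kb (3.04 to 5.85), against 2.65 (1.99 to 3.47) in both flanks together. That is a ratio of 1.61 with intervals that overlap, and overlap of separate intervals is no test of a difference. With flanks of 500 kb the ratio was 1.65. With flanks of 2 Mb, which held 1.85 (1.45 to 2.32), the ratio was 2.31 and the intervals no longer overlapped. The left flank held 23 clusters and the right flank 30, or 2.30 and 3.00 per 100 kb. Only the gamma block, among the 3 blocks, had an interval clear of the flanks. Chromosome 18 from its first to its last cluster held 0.942 per 100 kb, so the flanks too were denser than the chromosome at large. Clusters covered 0.489% of the bases of the span, 1.46% of the gamma block, 0.413% of the alpha block, 0.231% of the beta block and 0.315% of the flanks.

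**Figure D1:**
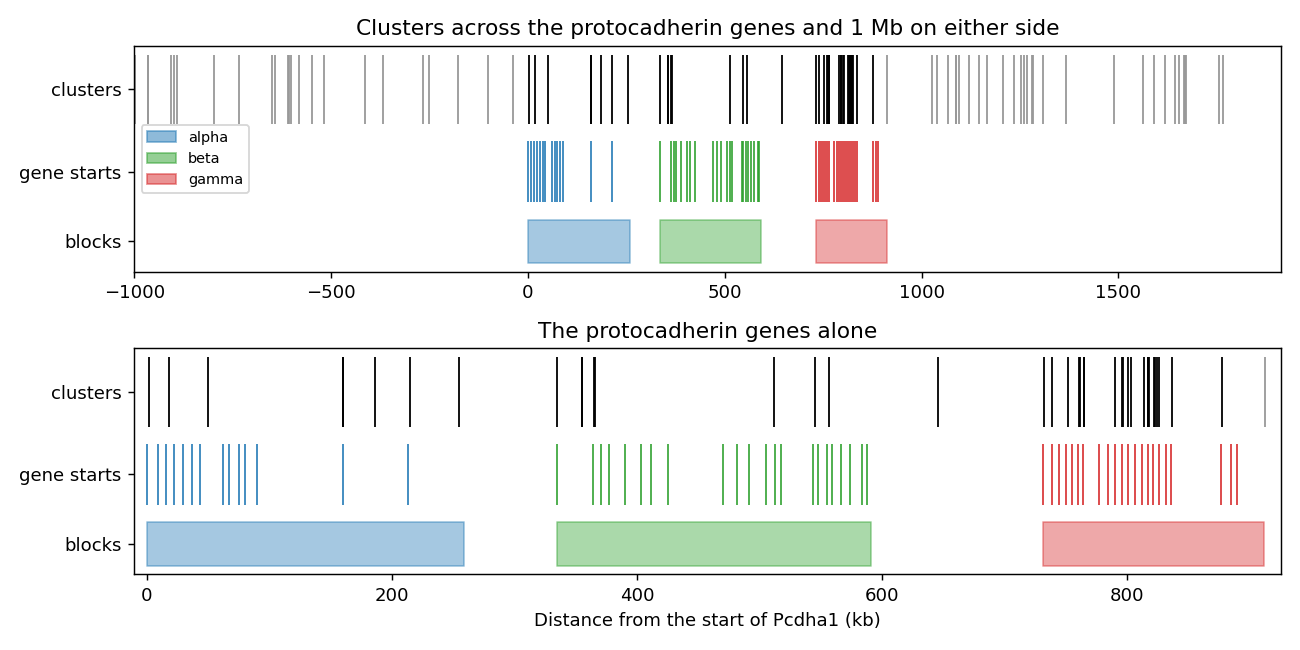
Positions of clusters (upper marks, black inside the span and grey in the flanks), gene starts (middle marks) and blocks (bars) along chromosome 18, as distance in kb from the start of Pcdha1, with the flanks in the upper panel and the genes alone in the lower one. At the scale drawn, the 22 gamma clusters lie above the gamma gene starts, while 110 kb of the alpha block and 147 kb of the beta block hold none.

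Most of the clusters sat on the variable exons. The annotation used gives gene bounds and no exons, so the first 2500 bp of each gene, or the whole gene where shorter, stood for its variable exon. Alpha and gamma genes end together at the higher coordinate (13 of 14 alpha ends and 21 of 22 gamma ends lie within 10 bp of the median end), so the lower-coordinate end is the side of the variable exon. Beta genes were read in the same orientation, which the annotation table does not give. These windows make up 15.9% of the span, and 31 of the 39 clusters (79.5%) overlapped them. The windows held 21.4 clusters per 100 kb and the rest of the span, gaps between blocks included, 1.04, a ratio of 20.5. Within single blocks the ratio was lower, 6.39 for alpha and 6.13 for beta, and the gamma block had no cluster outside its windows. In the gamma block all 22 clusters overlapped a window, although windows are 30.5% of its length. In the alpha block 4 of 8 clusters did, with windows at 13.5% of its length, and in the beta block 5 of 8, at 21.4%. No cluster overlapped more than 1 window, so each could be set beside a single variable exon, whereas by gene bounds 28 clusters fell in 2 or more protocadherin genes, and up to 20.

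Of the 58 variable exon windows, 22 (37.9%, exact Clopper-Pearson 95% interval 25.5 to 51.6%) had at least 1 cluster and 36 had none. By block the counts were 4 of 14 alpha genes (28.6%, 8.39 to 58.1%), 4 of 22 beta genes (18.2%, 5.19 to 40.3%) and 14 of 22 gamma genes (63.6%, 40.7 to 82.8%). The gamma interval overlaps that of the alpha genes and clears that of the beta genes by a narrow margin. Under each alternative run the gamma and beta intervals overlapped. With windows from 500 bp before to 3000 bp after the gene start the beta interval reached 45.4%. With clusters of at least 50 bp the gamma interval began at 32.2%. With the first 1000 bp only, the gamma interval began at 20.7% and the beta interval reached 29.2%. The gamma count was the highest of the 3 blocks under all of these settings. The intervals treat windows as independent, and their overlap is no test of a difference between blocks. Among 17492 other protein-coding genes with a start and strand in the RefSeq promoter table, 24.4% had a cluster in their first 2500 bp and 4.41% had 2 or more. Those genes held a mean of 0.299 clusters there, against 0.286 for alpha, 0.227 for beta and 1.00 for gamma genes. Only the gamma mean was thus above that of other genes. The share with 2 or more was 12.1% over the 58 protocadherins, made up of 27.3% of gamma, 4.55% of beta and 0% of alpha genes. That comparison is a description, since the variable exons are tandem copies of each other, not independent genes.

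**Figure D2:**
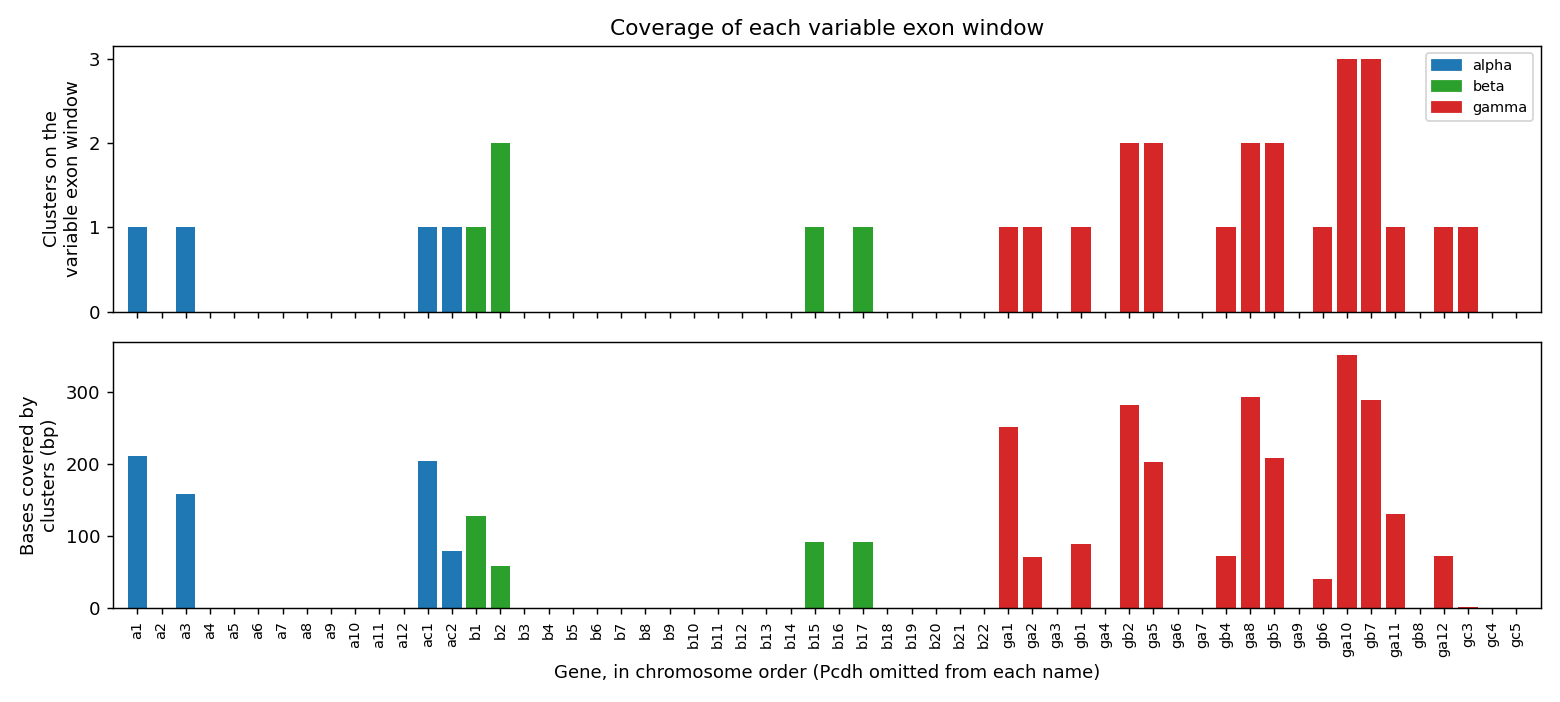
Number of clusters (upper panel) and bases covered by clusters in bp (lower panel) on the variable exon window of each of the 58 genes, in chromosome order and coloured by block. Pcdhga10 and Pcdhgb7 have 3 clusters each, and the 12 genes from Pcdhb3 to Pcdhb14 have 0.

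Gamma genes fall into A and B subfamilies, whose members are interspersed along the block, and the C-type genes at its end. A cluster lay on the window of 7 of 12 A genes and of 6 of 7 B genes. The window without one among the B genes was that of Pcdhgb8, the transcribed pseudogene of the set. Pcdhga10 was covered most, with 3 clusters over 352 bp (14.1% of its window). They lay at 37746972 to 37747121, across the gene start, at 37747455 to 37747490 and at 37747620 to 37747829. Its neighbour Pcdhgb7 also had 3, over 289 bp, at 37751811 to 37751874, 37753006 to 37753153 and 37754042 to 37754222. These were the only windows with 3 clusters, and they lie beside each other in a run of 4 covered genes from Pcdhgb6 to Pcdhga11.

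Windows with 2 clusters in the gamma block were those of Pcdhgb2, Pcdhga5, Pcdhga8 and Pcdhgb5. Pcdhga8 was covered over 293 bp, by a cluster that begins 40 bp from the gene start (37725746 to 37725860) and another in the exon body (37726626 to 37726803). Pcdhgb2 was covered over 283 bp, with both clusters deep in the exon, at 37691201 to 37691391 and 37691706 to 37691797. Pcdhgb5 had 208 bp, with 1 cluster near the start (37731111 to 37731253) and 1 beginning 1949 bp in (37732920 to 37732984). Pcdhga5 had 203 bp, at 37694894 to 37695027 and 37695188 to 37695256. The 4 genes thus differ in whether the clusters lay at the start, in the body or towards both ends of the exon.

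The other covered gamma windows had 1 cluster each. Pcdhga1, the first gene of the block, had 252 bp at 37661968 to 37662219. Pcdhga11 had the longest cluster of the whole span, 257 bp at 37755647 to 37755903, which straddles its start and left 131 bp inside the window. Pcdhga2 (71 bp), Pcdhgb1 (89 bp), Pcdhgb4 (72 bp), Pcdhgb6 (40 bp) and Pcdhga12 (72 bp) had shorter ones. The 5 A genes without a cluster were Pcdhga3, Pcdhga4, Pcdhga6, Pcdhga7 and Pcdhga9, of which Pcdhga6 and Pcdhga7 are neighbours and the others lie singly between covered genes.

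In the alpha block, clusters lay on the windows of 2 early genes and of both C-type genes. Pcdha1 had a cluster of 212 bp (36932330 to 36932541) and Pcdha3 of 159 bp (36948072 to 36948230), beginning 2045 and 1984 bp from the respective gene start, in the same late part of the exon. The 9 genes from Pcdha4 to Pcdha12 had none. Across them, 109626 bp without any cluster ran from 36980459 to 37090084, and this stretch holds the starts of the 5 genes from Pcdha8 to Pcdha12. The remaining clusters of the block lay between Pcdha7 and Pcdha8 (36980330 to 36980458), within the pseudogene Gm36858, and at or after the C-type genes.

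Both alpha C-type genes were covered. Pcdhac1 had a cluster of 204 bp at 37090334 to 37090537, beginning 198 bp from its start, and a short one of 41 bp just before the start, at 37090085 to 37090125. Pcdhac2 had 80 bp at 37144816 to 37144895. A further cluster lay in the long stretch between these genes (37116329 to 37116452), and another of 120 bp (37184983 to 37185102) in the last part of the block, which contains the constant exons. Of the gamma C-type genes, Pcdhgc3 had a cluster of a single position (37807433), and Pcdhgc4 and Pcdhgc5 had none. After that position no cluster lay in the gamma block, its constant part included, and the next one began 559 bp beyond the end of the span (37842432 to 37842746, 315 bp).

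Of the 3 blocks, the beta block had the smallest share of window bases inside clusters. Its windows had 0.677% of bases covered, against 1.87% for alpha and 4.28% for gamma. The clusters lay at the 2 genes that open the block and at 2 further along it. Pcdhb1 had 128 bp at 37265223 to 37265350. Pcdhb2 had a single position (37294872), 32 bp from its start, and 58 bp at 37295819 to 37295876. Pcdhb15 and Pcdhb17 each had 92 bp, at 37475462 to 37475553 and 37486904 to 37486995, beginning 1916 and 1883 bp into the gene.

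The 12 genes from Pcdhb3 to Pcdhb14 had no cluster on their windows, nor did the 5 genes from Pcdhb18 to Pcdhb22. The longest stretch of the span without a cluster, 146502 bp from 37295877 to 37442378, took in the starts of 10 genes from Pcdhb3 to Pcdhb12. A cluster of 62 bp at 37442379 to 37442440 ended it, beginning 138 bp before Pcdhb13. Another 2 clusters lay between Pcdhb1 and Pcdhb2, at 37285362 to 37285482 and 37285695 to 37285732. With whole beta genes in place of windows the count stayed at 4 of 22, and at 5 clusters.

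**Figure D3:**
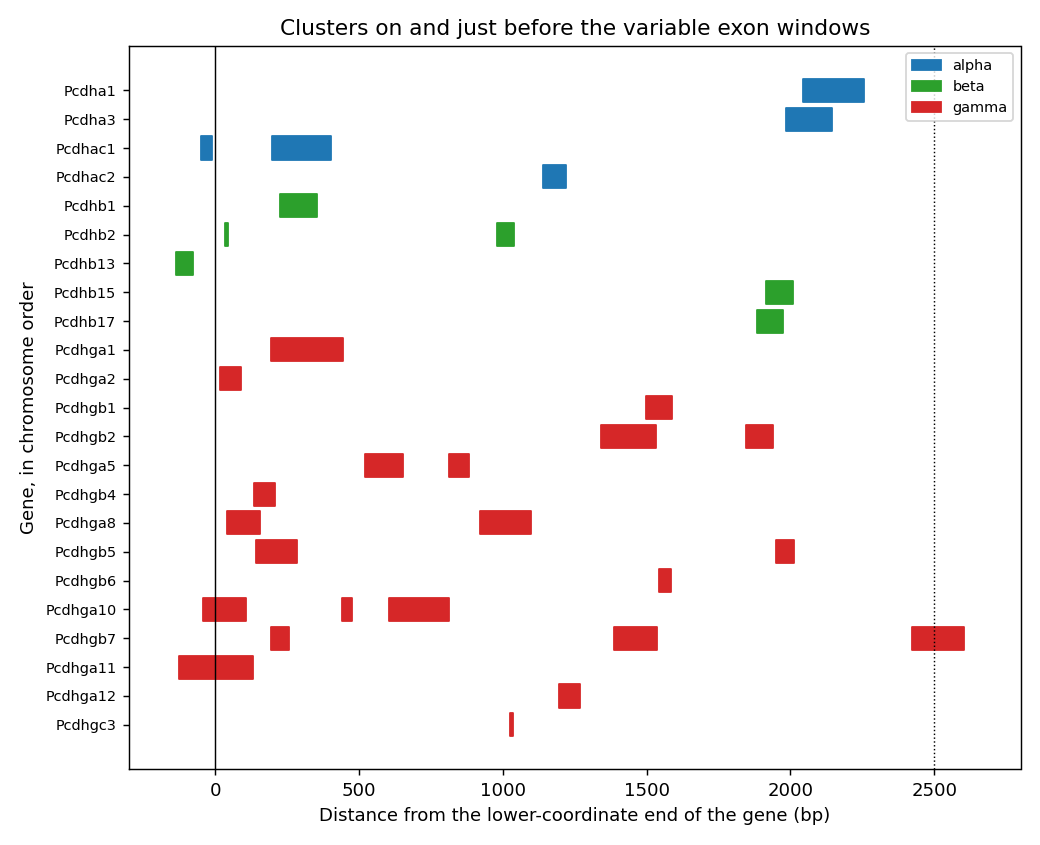
Clusters on the variable exon windows, or within 500 bp before them, of the 23 genes that have any, as distance in bp from the lower-coordinate end of each gene (solid line at 0, dotted line at the end of the 2500 bp window; single positions are drawn 12 bp wide). The gamma clusters range from across the gene start to the end of the window, and those of Pcdha1 and Pcdha3 overlap in position, as do those of Pcdhb15 and Pcdhb17.

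Along the exon, clusters were found from the gene start to the end of the window. In bins of 250 bp, 11 of the 58 genes had a cluster in the first bin after the gene start, 6 in the next and between 2 and 5 in each of the other bins up to 2500 bp. In the 250 bp before the start 4 genes had one, and in the 3 bins before that 0. Beyond 2750 bp, up to 4000 bp, the count was 0 in each bin. Of the 31 clusters on windows, 12 had their centre within 500 bp of the gene start, 10 between there and 1500 bp, and 9 further in. The median centre lay 1008 bp from the start over all blocks, at 778 bp for the 22 gamma clusters, 1620 bp for the 4 alpha clusters and 1008 bp for the 5 beta clusters.

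Clusters over the protocadherin genes had a median length near that of the lists, and none was long. Their median was 115 bp (95% interval from the order statistics 72 to 143), against 89 bp over all clusters of the lists, which lies within that interval. The longest was 257 bp, whereas the flanks reached 627 bp on the left and 434 bp on the right. Alpha clusters had a median of 126.5 bp, gamma clusters of 103.5 bp and beta clusters of 77 bp. Single positions made up 2 of the 39, or 5.13%, against 8.87% of all clusters.

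**Figure D4:**
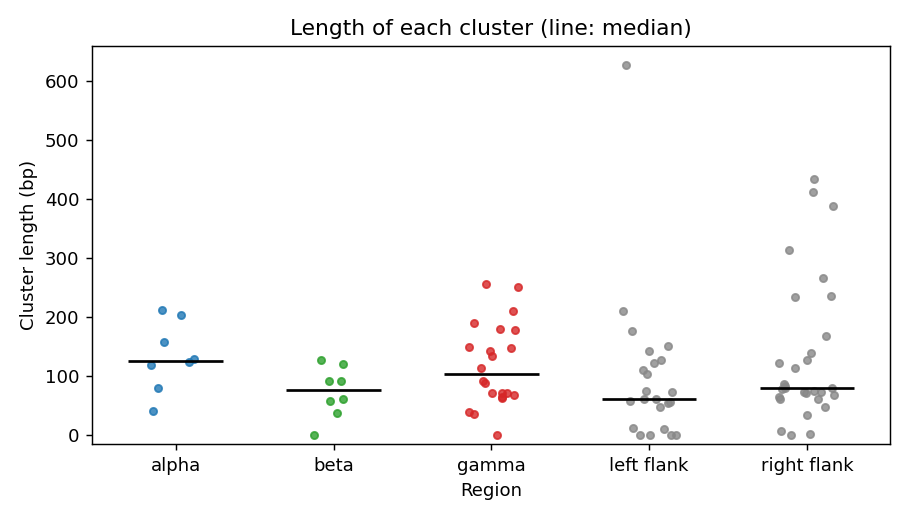
Length in bp of each cluster in the 3 blocks and the flanks, with a line at the median; points are spread sideways only to separate them. All clusters of the blocks lie at or below 257 bp, and 1 cluster of the left flank and 5 of the right lie above that.

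Of other arrays of related genes, the protocadherins lay between the densest and the sparsest. The 4 Hox arrays, transcription factor genes of body patterning, held between 26.8 (Hoxc) and 39.2 (Hoxd) clusters per 100 kb, with intervals that lie above that of the protocadherin span; the Hoxc interval (18.2 to 38.0) overlapped that of the gamma block. The Ugt1a array on chromosome 1 holds glucuronosyltransferase genes built like the alpha and gamma blocks from variable first exons and shared later exons. It held 2 clusters in 165 kb, or 1.22 per 100 kb (0.147 to 4.39), an interval that overlaps that of the protocadherin span. The Hist1 histone array on chromosome 13, 54 genes in a region far longer than the other arrays, held 31 in 2219 kb, or 1.40 (0.949 to 1.98). In these arrays 0 of 180 clusters were called, where 0.136 would fall at the overall share of 0.0753%.

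**Figure D5:**
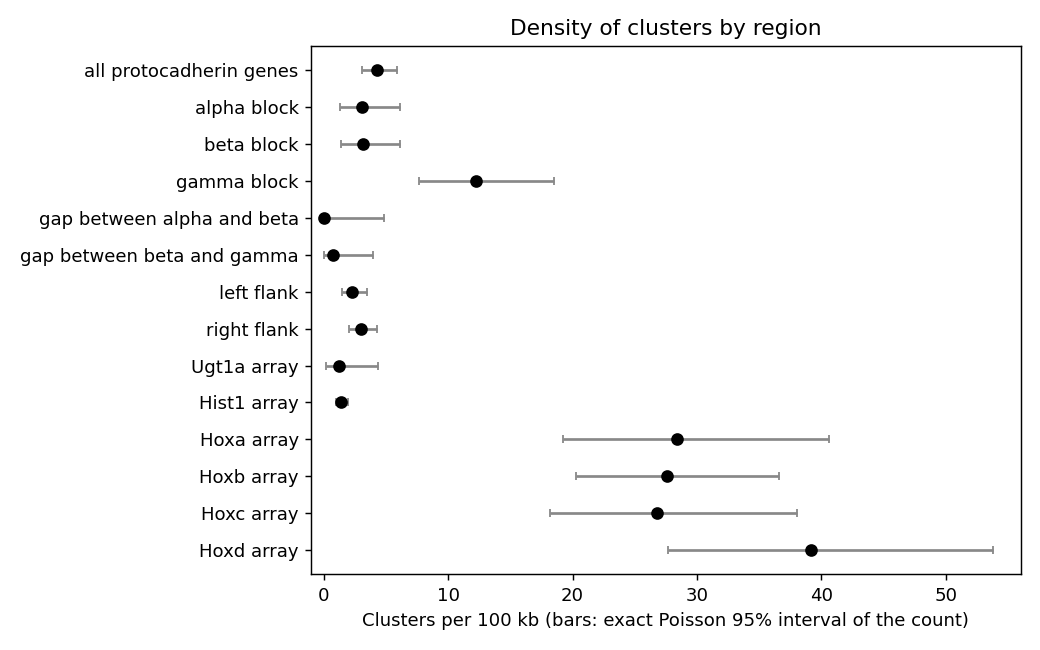
Clusters per 100 kb in the protocadherin span, its blocks and gaps, its flanks and other gene arrays, with exact Poisson 95% intervals of the counts as bars. The gamma block, at 12.2, stands above the flanks and below the 4 Hox arrays, which start at 26.8.

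Non-clustered protocadherins, relatives outside the blocks with their own complete genes, were covered in 10 of 13 cases within 3000 bp of the gene, with 36 clusters and 0 called (up to 8.33% allowed, with 0.0271 calls at the overall share of 0.0753%). These counts take in whole genes, from 4.54 kb (Pcdh8) to 1554 kb (Pcdh15), so they are not comparable with those of the 2500 bp windows. The share of all genes with a cluster under this rule was not computed, here or for the list below. Pcdh19, an X-linked cell adhesion gene, had 8, Pcdh8 had 5, and Pcdh1, Pcdh7 and Pcdh15, the last a gene of the inner ear hair bundle, had 4 each. Pcdh1 lies in the right flank. Genes that act on or with the clustered protocadherins held 15 clusters at 11 of 17 genes, also with 0 called (up to 20.0% allowed, with 0.0113 calls at the overall share). Wiz, a zinc finger protein gene, had 3, and the cohesin subunit gene Stag2 had 2. A single cluster lay at 8 genes, among them the methyltransferase gene Dnmt3b and Smchd1, which encodes a chromatin protein, and 0 at 6, among them Ctcf.

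Among other RefSeq genes of the span, the 3 models Gm37013, Gm38666 and Gm38667 run from the alpha block to the end of the gamma block, so each contains 37 of the 39 clusters and adds no further position. Within the flanks the highest counts inside gene bounds were 5 at Nrg2, a neuregulin gene, and 4 at the noncoding RNA gene Gm30093, followed by 3 each at Pcdh1 and at Arhgap26, a GTPase-activating protein gene. From first to last cluster these spread over 174, 70.4, 22.4 and 92.6 kb. The 6 clusters of the neighbouring Pcdhga10 and Pcdhgb7 lie within 7.25 kb. That pair was picked for its high counts on windows of 2500 bp, whereas the flank counts take in whole genes, so the extents are not like for like. Flank genes with 2 clusters had extents from 0.451 kb (Psd2) to 31.7 kb (Cystm1).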

How the data were processed

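Muscle stem cells of 8 mice, 4 labelled fixed and 4 live, were profiled by reduced representation bisulfite sequencing. Per the submitters' processing notes, the tools were Bismark 0.14.4, Trim Galore 0.4 and ChIPseeker 1.12.1, with mm10 as the build. The caller and filters behind the clusters are not given in these sources. As deposited by the authors, there are lists of 21 significant and 27857 not significant clusters, pooled over samples, whose score field is 0 in every line, and a table of the 21 regions with a p-value, which may or may not be adjusted, and a signed median difference. All 21 regions had the same coordinates in the deposited table and list.

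Positions were converted to a 1-based start and matched to RefSeq gene bounds of GRCm38.p6 with Python 3.11.15, pandas 2.3.3, numpy 2.4.6 and scipy 1.17.1. Figures used matplotlib 3.10.9. Placement of clusters was tested on simulated data. The depth is unknown, so the precision of each verdict is too. No test was run, since the lists hold no value per sample. The members and gene lists were chosen with earlier results of these data known. Named are all genes with a cluster on their variable exon window, the C-type genes, the most covered genes of each list (ties in part) and of the flanks, and others after their values were seen. A gene of the list of genes that act on or with the protocadherins is not reported here by name. Of 14 non-clustered protocadherin symbols, 13 matched. The other, Pcdh21, is an old name of Cdhr1, which is among the 13. Sequences of the locus were not used here, so the planned description of promoter sequence was not made.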

Additional observations from a re-analysis of the deposited data

How the results depend on the processing

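Of the alternatives that were run, 35 left their value close to the reported one (counts within 1.5 times, densities and medians within their 95% interval) and 5 moved it. With a flank of 2 Mb the flank density fell to 1.85 clusters per 100 kb, with a ratio of span to flank of 2.31. With only the first 1000 bp of each gene as window, fewer variable exons had a cluster: 12 in all, with 1 alpha, 2 beta and 9 gamma genes, because clusters further into the exon drop out by construction. The count of called clusters over the protocadherin genes stayed at 0 when the 73 clusters at the head of the not significant list were counted as called too, which raises the share over all clusters to 0.337%. Merging neighbours within 1000 bp left 30 clusters, of which 16 were in the gamma block, and brought the ratio of span to flank density to 1.32. No paired analysis was possible because the deposited lists give verdicts pooled over samples, which also means that no replicate could be dropped in turn. The unknown read depth limits what a cluster that was not called, or a gene without a cluster, can show.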
